A study of Mus musculus with 6 samples.

Results

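The 6 genes described here are those that mitochondrial DNA holds for subunits of respiratory complexes III, IV and V. Below, the values of each gene are called those of an mRNA, although mt-Atp8 and mt-Atp6 share an RNA. The genes are mt-Cytb of complex III, mt-Co1, mt-Co2 and mt-Co3 of complex IV, and mt-Atp8 and mt-Atp6 of complex V. Their identifiers in the files are ENSMUSG00000064370 for mt-Cytb, ENSMUSG00000064351 for mt-Co1, ENSMUSG00000064354 for mt-Co2, ENSMUSG00000064358 for mt-Co3, ENSMUSG00000064356 for mt-Atp8 and ENSMUSG00000064357 for mt-Atp6. They were taken by gene symbol, and all 6 were among the 13685 rows of the expression tables. RNA was sequenced from CD4+ T cells of spleen and mesenteric lymph node of WT C57BL/6 mice. In 3 libraries the cells had been cultured for 4 h with tunicamycin at 0.15 µg/mL, and in 3 libraries with vehicle; the titles of these control samples say no treatment. All 6 libraries came from cells outside the CD25+ regulatory T cell fraction. Per the labels, the libraries of a group are technical replicates of the same batch, so the p-values below rest on a spread that may be technical. The labels give no age of the mice and no number of donors.

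Mitochondrial DNA is copied into long precursor RNAs from both strands, which are then cut, mostly at tRNAs, into mRNAs, rRNAs and tRNAs. Complex III passes electrons from ubiquinol to cytochrome c, complex IV passes them on to oxygen, and complex V uses the resulting proton gradient to make ATP. The mitochondrially encoded proteins are core membrane subunits of these complexes, and nuclear genes supply the other subunits. Resting T cells draw much of their ATP from this chain. Tunicamycin blocks the first step of N-linked glycosylation in the endoplasmic reticulum so that unfolded proteins build up there. The treatment was set against vehicle to profile its effect on transcripts.

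All 6 genes lie on the + strand of mitochondrial DNA. Sequences and positions are from GENCODE M21 on build GRCm38, and they were not converted to GRCm39, the build that the submitters' processing notes name. Each gene is annotated as a protein-coding gene with a transcript of a single exon. mt-Co1 spans 5328 to 6872, mt-Co2 7013 to 7696, mt-Atp8 7766 to 7969, mt-Atp6 7927 to 8607, mt-Co3 8607 to 9390 and mt-Cytb 14145 to 15288. The reading frames of mt-Atp8 and mt-Atp6 overlap, and both proteins are read from the same mature RNA. The overlap is shown because these bases belong to both genes, and capitals mark its 43 bases (chrM:7927-7969, + strand). The stretches span chrM:7903-7969 and chrM:7927-7993.
mt-Atp8 end: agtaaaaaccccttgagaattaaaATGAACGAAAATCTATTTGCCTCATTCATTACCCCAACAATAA
mt-Atp6 start: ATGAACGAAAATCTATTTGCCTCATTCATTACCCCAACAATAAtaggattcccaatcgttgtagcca
The overlap makes up 21.1% of the 204 bases of mt-Atp8 and 6.31% of the 681 bases of mt-Atp6.

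mt-Atp6 and mt-Co3 also have no tRNA between them, and they share a base, which is in capitals in chrM:8584-8607 and chrM:8607-8630.
mt-Atp6 end: ctatatctacatgataatacataA
mt-Co3 start: Atgacccaccaaactcatgcatat
The ends of mt-Co3 and mt-Cytb are shown because neither holds a whole stop codon. In each, a T follows the last whole codon, and the poly(A) tail added to mitochondrial mRNAs is known to complete the stop. mt-Co1, printed for contrast, ends in a whole TAA. Capitals mark the base after the last whole codon, or the stop codon, in chrM:15268-15288, chrM:9370-9390 and chrM:6852-6872.
mt-Cytb last bases: aaatactaaaattatatccaT
mt-Co3 last bases: ccatttattgatgaggatctT
mt-Co1 last bases: acctatgtaaaagtaaaaTAA

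Parts of mitochondrial DNA also have copies in the nuclear genome, and estimated counts can be split between a gene and its copy. Of the 31-base stretches of each transcript, the share also found in an annotated nuclear transcript was 100% for mt-Co2, 99.9% for mt-Co3 and 99.5% for mt-Atp6. It was 63.9% for mt-Co1, 7.47% for mt-Atp8 and 6.55% for mt-Cytb. The copy of mt-Atp6, the pseudogene Gm10925 on chromosome 1, was listed at 0 in all 6 libraries. It also holds the shared stretches of mt-Atp8. The main copies of mt-Co1, mt-Co2, mt-Co3 and mt-Cytb, which include Gm28661 for mt-Co2 and Gm28437 for mt-Co3, were not analysed here. The values of mt-Co1, mt-Co2 and mt-Co3 are therefore uncertain to the extent that reads were assigned to such copies.

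The summed counts of the rows were 10584276 to 11211270 in tunicamycin and 7412151 to 9495725 in vehicle. These ranges do not overlap, so depth moved with the treatment, and its part in the results was not tested. The rows hold part of each library, with a summed level of 319120 to 332870 TPM (transcripts per 1000000, a level per length). Of 10 fixed markers of CD4+ T cells, 5 had a row, with a summed level of 1960 to 2120 TPM in tunicamycin and 1960 to 2180 TPM in vehicle. Cd4 itself was not analysed here. The CD8 marker Cd8b1 had 10.5 to 11.9 TPM in tunicamycin and 9.47 to 10.8 TPM in vehicle. Il2ra, which encodes CD25, had 7.74 to 14.1 TPM in tunicamycin and 6.87 to 8.41 TPM in vehicle. The B cell marker Cd79a had 0.661 to 1.13 TPM in tunicamycin and 0.886 to 1.07 TPM in vehicle. The plasma cell markers, 3 of 4 with a row, ran from 26.1 to 191 TPM in tunicamycin and from 21.4 to 183 TPM in vehicle. Most of this was Igha, which differed between replicates in a like way in both groups. It had 86.8, 160 and 21.5 TPM in tunicamycin replicates 1 to 3 and 77.8, 152 and 18.6 TPM in vehicle. For the NK cell markers, 4 of 5, the range was 11.2 to 16.1 TPM in tunicamycin and 9.03 to 11.3 TPM in vehicle, and their part in the results was not tested. The single macrophage marker with a row, Lyz2, had 3.55 to 10.4 TPM in tunicamycin and 2.94 to 8.52 TPM in vehicle. Erythroid markers summed to at most 3.9 TPM in tunicamycin and 3.38 TPM in vehicle.

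The 6 mRNAs were among the most abundant transcripts of the rows. In mean TPM over the 6 libraries they ranked 1 (mt-Atp6), 2 (mt-Atp8), 4 (mt-Co1), 5 (mt-Co2), 6 (mt-Co3) and 9 (mt-Cytb). Together they made up 24.2% ± 1.39 of the TPM of all rows in tunicamycin and 24.8% ± 1.53 in vehicle (SD, n = 3 each). Of the estimated counts they made up 12.5% ± 0.974 in tunicamycin and 12.6% ± 0.866 in vehicle (SD, n = 3 each). Both differences were smaller than the spread between libraries. In bulk RNA, a change in cell makeup and a change in RNA per cell cannot be told apart.

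The order of the levels in TPM was nearly the same in all libraries. mt-Atp8 was above mt-Co1, mt-Co1 above mt-Co2, mt-Co2 above mt-Co3 and mt-Co3 above mt-Cytb in each of the 6 libraries. mt-Atp6 and mt-Atp8 changed places: mt-Atp6 was the higher in 3 of 3 tunicamycin libraries and in 1 of 3 vehicle libraries. Across libraries the ranges of these neighbours overlapped, except that every value of mt-Co3 lay above every value of mt-Cytb, with a ratio of the means of 1.83. The TPM of the short mt-Atp8 rests on its estimated effective length. The count per TPM of mt-Atp8 was 7.92% to 8.48% of that of mt-Co1, while its transcript length is 13.2% of that of mt-Co1.

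**Figure D1:**
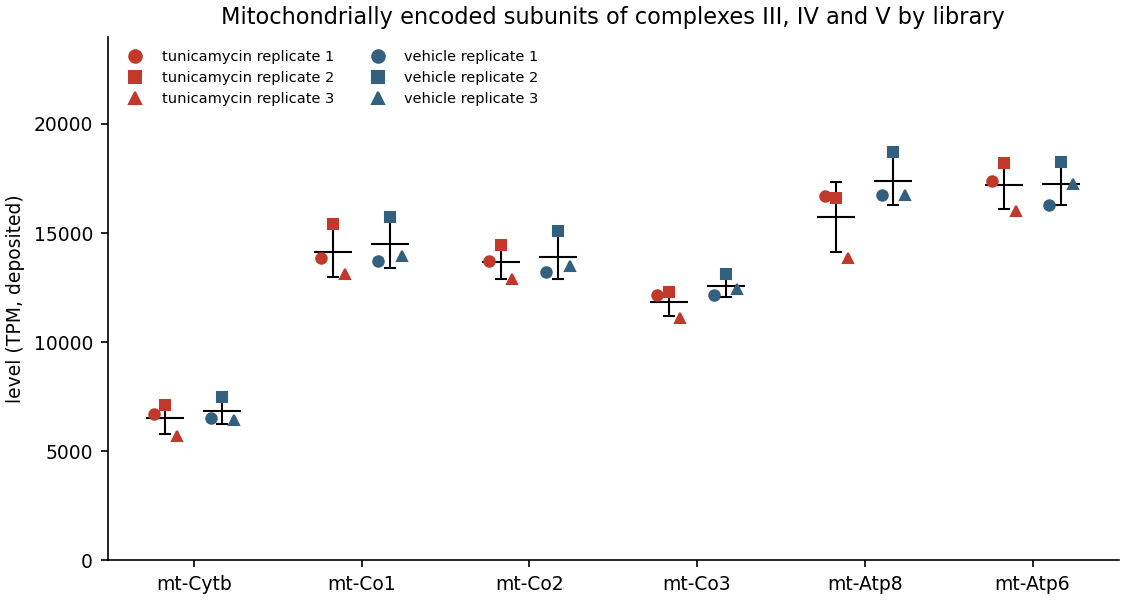
Level of each of the 6 mRNAs in TPM (vertical axis) in each library, with tunicamycin left of vehicle; points are libraries (colour for group, shape for replicate), and the bars are the mean and SD (n = 3). The groups overlap for 5 mRNAs, and mt-Atp8 averaged 15726 TPM in tunicamycin and 17407 TPM in vehicle.

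None of the 6 mRNAs changed past the threshold between tunicamycin and vehicle (edgeR quasi-likelihood test, Benjamini-Hochberg adjusted p under 0.05 over all 3613 genes tested). Over all tested genes, 0.083% passed in either direction, 0.0554% higher and 0.0277% lower in tunicamycin. By DESeq2 and by limma on log2(TPM + 1) the count of members was also 0. At an unadjusted p under 0.05 there was 1 of 6, mt-Atp8, against 6.42% of all tested genes in either direction and 3.18% with tunicamycin lower. That count was 1 of 6 in DESeq2 and 0 of 6 in limma, 2 of 6 with effective-length offsets or with the replicate block, and 4 of 6 with both. The shares above are from the main fit. The share of all tested genes in these other fits was not worked out, so their counts cannot be judged against it. All 6 passed the filter on low counts. The log2 fold change was below 0 for 5 of 6, with a median of -0.06, against 49.9% of all tested genes and a median of 0.00070. The 95% intervals of all 6 members lay between folds of 0.794 and 1.13.

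mt-Cytb encodes cytochrome b, the mitochondrially encoded subunit of complex III. It had 17785, 18484 and 14735 CPM (counts per 1000000 of TMM-scaled library size) in tunicamycin replicates 1 to 3, and 17378, 20261 and 17436 CPM in vehicle replicates 1 to 3. Tunicamycin replicate 3 was the lowest of the 6 libraries and vehicle replicate 2 the highest, and the groups overlapped. The log2 fold change was -0.11 with an SE of 0.09 (95% interval -0.31 to 0.09, edgeR adjusted p = 0.91). Without tunicamycin replicate 3 it was -0.02. Its CPM varied the most among the 6 mRNAs, with a coefficient of variation of 11.7% in tunicamycin and 8.98% in vehicle.

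mt-Co1 encodes the subunit of complex IV that holds the site where oxygen is reduced. It had the most counts of any row, at 48445, 52323 and 44512 CPM in tunicamycin and 47547, 55834 and 49798 CPM in vehicle. The groups overlapped, with the lowest value in tunicamycin replicate 3 and the highest in vehicle replicate 2. The log2 fold change was -0.08 with an SE of 0.08 (95% interval -0.25 to 0.10, edgeR adjusted p = 0.94). Without vehicle replicate 2 it was -0.0040.

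mt-Co2 encodes the subunit of complex IV that takes up electrons from cytochrome c. It had 17639, 18126 and 16182 CPM in tunicamycin and 16343, 18750 and 17171 CPM in vehicle. The lowest values of the groups were close to each other, and the groups overlapped over most of their range. Between the groups it differed by -0.0088 on the log2 scale with an SE of 0.07 (95% interval -0.16 to 0.15, edgeR adjusted p = 0.99). Its sign turned under several alternatives, among them scaling without a composition factor, where it was 0.034.

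mt-Co3 encodes the remaining mitochondrially encoded core subunit of complex IV. It had 17016, 16677 and 14943 CPM in tunicamycin and 16028, 17460 and 16697 CPM in vehicle. Tunicamycin replicate 3 was again the lowest and vehicle replicate 2 the highest. The log2 fold change was -0.05 with an SE of 0.07 (95% interval -0.19 to 0.10, edgeR adjusted p = 0.96). With offsets for effective length it was -0.15 (edgeR adjusted p = 0.63). The count per TPM of mt-Co3, relative to the median of each library, was higher in every tunicamycin library than in any vehicle library, by 0.0816 on the log2 scale.

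mt-Atp8 encodes a small subunit of the membrane part of complex V. It had 4620, 4562 and 3991 CPM in tunicamycin and 4662, 5272 and 4964 CPM in vehicle. All 3 tunicamycin libraries lay below all 3 vehicle libraries, although tunicamycin replicate 1 and vehicle replicate 1 were close. Such a separation in either direction was seen for 12.6% of all tested genes, and for 5.95% with tunicamycin lower. The log2 fold change was -0.18 with an SE of 0.07 (95% interval -0.33 to -0.02), with an unadjusted p of 0.028 and an edgeR adjusted p = 0.65. The adjusted p ran from 0.11 in DESeq2 to 1.0 over all alternatives, so the change was not called under any of them. Without tunicamycin replicate 3 the log2 fold change was -0.11.

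mt-Atp6 encodes the subunit of complex V through which protons pass. It had 20494, 20920 and 18091 CPM in tunicamycin and 18240, 20822 and 19979 CPM in vehicle. The highest value was in tunicamycin replicate 2 and the lowest in tunicamycin replicate 3, so the tunicamycin group spanned the vehicle group. On the log2 scale the fold change was 0.01 with an SE of 0.07 (95% interval -0.15 to 0.17, edgeR adjusted p = 0.99), and its sign turned under 8 of 19 alternatives.

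**Figure D2:**
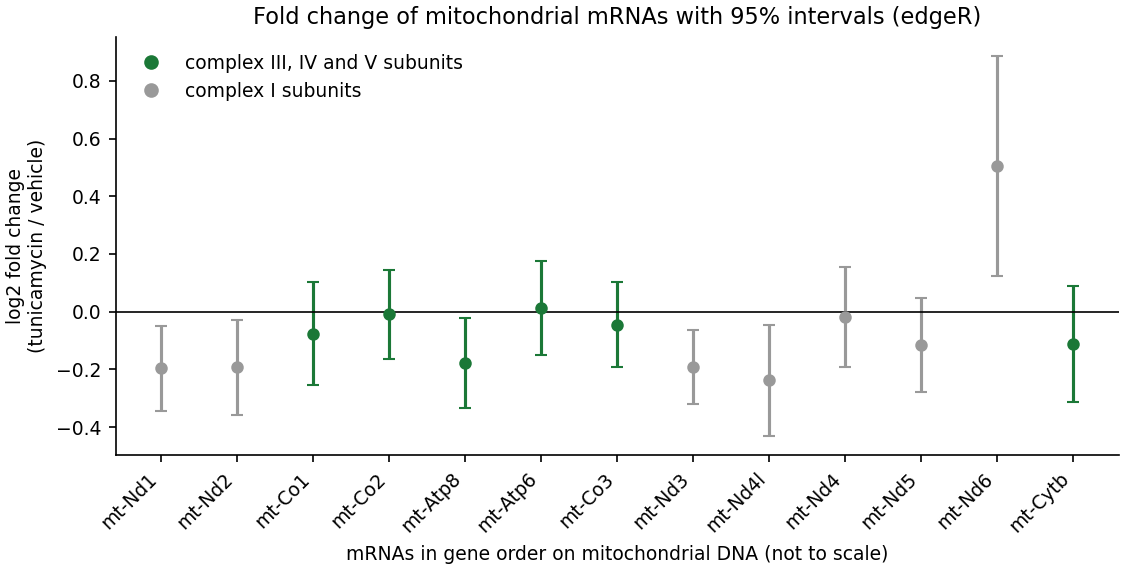
Log2 fold change of tunicamycin over vehicle with 95% intervals (vertical axis, edgeR) for the 13 mitochondrially encoded mRNAs in gene order (horizontal axis, not to scale). Among the complex III, IV and V mRNAs (green) the interval of mt-Atp8, -0.33 to -0.02, is the only one that does not include 0.

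The 6 mRNAs moved together from library to library. Pearson's r of log2 CPM over the 6 libraries ran from 0.627, for mt-Atp8 with mt-Atp6, to 0.947, for mt-Cytb with mt-Co1. These values describe libraries that share a scaling and a depth, and they include the difference between groups. All 6 mRNAs had their lowest CPM in tunicamycin replicate 3, where their mean deviation from the mean over libraries was -0.17 on the log2 scale. That library held the lowest value for 12.6% of all tested genes. Vehicle replicate 2 held the highest value of 5 of the 6, with a mean deviation of 0.14, and the highest value of 17.7% of all tested genes. Without tunicamycin replicate 3 the median log2 fold change of the 6 mRNAs was -0.0010, and without vehicle replicate 2 it was -0.0070. Tunicamycin replicate 3 also had the smallest summed TPM of the rows, 319120, but that sum includes the 6 mRNAs and so is not separate from their low levels.

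**Figure D3:**
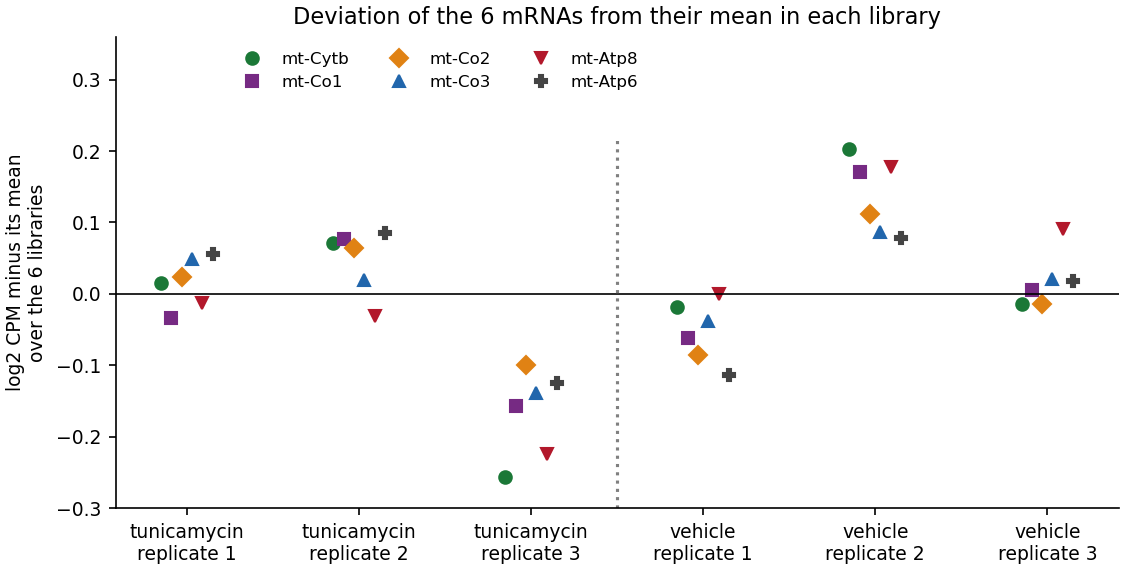
Log2 CPM of each of the 6 mRNAs minus its mean over the 6 libraries (vertical axis) in each library (horizontal axis). All 6 points lie below 0 in tunicamycin replicate 3, with a mean of -0.17, and above 0 in vehicle replicate 2, with a mean of 0.14.

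Ratios within a library do not depend on how libraries are scaled. mt-Atp8 and mt-Atp6 share an RNA, so their ratio compares values assigned to the genes and not levels of separate RNAs. The cause of a difference in it was not tested. This ratio of mt-Atp8 to mt-Atp6 was lower in each tunicamycin library than in any vehicle library. In estimated counts it was 0.226, 0.218 and 0.221 in tunicamycin and 0.256, 0.253 and 0.249 in vehicle. In TPM it was 0.960, 0.912 and 0.866 in tunicamycin and 1.03, 1.02 and 0.971 in vehicle. The gap between the groups was wider in counts than in TPM when set against the spread between libraries. The mean log2 ratio differed by -0.19 in counts and by -0.14 in TPM, each with an exact 2-sided permutation p = 0.1, the smallest that 3 against 3 libraries allow. Adjusted over the 4 ratios compared, p was 0.133 in counts and 0.2 in TPM, so the difference did not pass.

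The ratio of mt-Co3 to mt-Atp6, which adjoin each other, was also lower in tunicamycin. In TPM it was 0.698, 0.675 and 0.692 in tunicamycin and 0.747, 0.718 and 0.721 in vehicle, without overlap (exact permutation p = 0.1, adjusted p = 0.2). The ratio of mt-Co2 to mt-Co1 was 0.358 ± 0.0100 in tunicamycin and 0.341 ± 0.00491 in vehicle in counts (SD, n = 3 each). It did not overlap and did not pass (exact permutation p = 0.1, adjusted p = 0.133). In TPM it was 0.970 ± 0.0268 in tunicamycin and 0.962 ± 0.00350 in vehicle (SD, n = 3 each), and the groups overlapped. The count per TPM of mt-Co2, relative to each library's median, was higher in every tunicamycin library, by 0.0568 on the log2 scale, while that of mt-Co1 overlapped. The ratio of mt-Cytb to mt-Co1 was 0.460 ± 0.0237 in tunicamycin and 0.471 ± 0.00790 in vehicle in TPM (SD, n = 3 each), also with overlap.

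**Figure D4:**
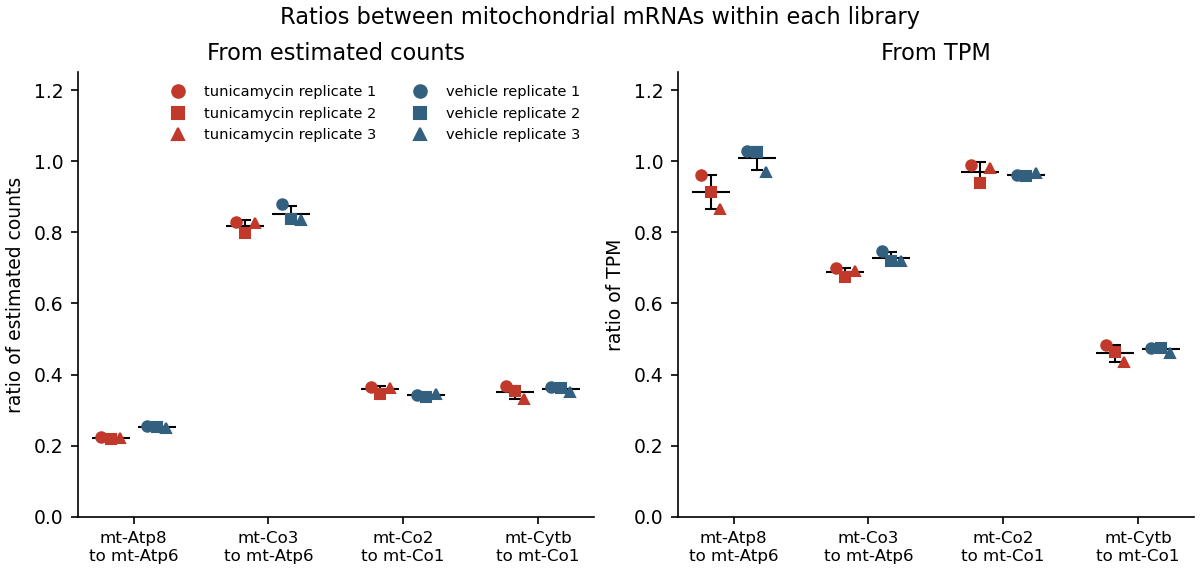
Ratios between mRNAs within each library (vertical axes), from estimated counts (left) and from TPM (right), with tunicamycin left of vehicle; points are libraries (colour for group, shape for replicate), and the bars are the mean and SD (n = 3). The ratio of mt-Atp8 to mt-Atp6 is 0.218 to 0.226 in tunicamycin and 0.249 to 0.256 in vehicle in counts.

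The level of each gene was also expressed as a share of the summed TPM of the 13 protein-coding mitochondrial genes. mt-Atp8 held 15.8%, 15.1% and 14.5% in tunicamycin and 16.1%, 16.2% and 15.8% in vehicle. All tunicamycin shares were below all vehicle shares (difference -0.91 percentage points, exact permutation p = 0.1, adjusted p = 0.3 over the 6 shares). mt-Atp6 held 16.4%, 16.5% and 16.7% in tunicamycin and 15.6%, 15.8% and 16.3% in vehicle. Here all tunicamycin shares were above all vehicle shares (difference 0.66 percentage points, exact permutation p = 0.1, adjusted p = 0.3). For mt-Co1, mt-Co2, mt-Co3 and mt-Cytb the groups overlapped, with differences of 0.28, 0.37, -0.18 and -0.02 percentage points. In counts the share of mt-Co2 did not overlap, at 10.3%, 10.2% and 10.6% in tunicamycin and 9.87%, 9.91% and 9.94% in vehicle (exact permutation p = 0.1, adjusted p = 0.2). A gain in one share lowers the others, so the shares are not independent of each other.

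The 6 mRNAs together made up 76.1% ± 0.158 of the mitochondrial mRNA in tunicamycin and 75.9% ± 0.470 in vehicle (SD, n = 3 each) in TPM. In counts they made up 73.7%, 73.9% and 73.9% in tunicamycin and 72.6%, 73.1% and 73.0% in vehicle, without overlap. The rest were the 7 complex I mRNAs, of which 0 passed the threshold and 5 had an unadjusted p under 0.05 (edgeR; 6.42% of all tested genes). Their log2 fold changes were -0.20 (mt-Nd1), -0.19 (mt-Nd2), -0.19 (mt-Nd3), -0.24 (mt-Nd4l), -0.02 (mt-Nd4) and -0.11 (mt-Nd5), and 0.51 for mt-Nd6, which is encoded on the other strand. The median was -0.06 for the 6 mRNAs and -0.19 for complex I. With offsets for effective length these medians were -0.112 and -0.105, and in limma on log2(TPM + 1) they were -0.053 and -0.044. The gap between the medians was thus seen in counts and not per length, and it was not itself tested. In CPM the groups did not overlap for 5 of the 7, against 12.6% of all tested genes: mt-Nd1, mt-Nd2, mt-Nd3 and mt-Nd4l were lower in tunicamycin and mt-Nd6 was higher. In TPM the groups overlapped for mt-Nd3 and mt-Nd4l and did not overlap for mt-Nd1, mt-Nd2 and mt-Nd6.

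Nuclear genes for the same complexes did not pass the threshold either. Of 9 listed nuclear subunits of complex III, 4 were tested and 0 passed, with a median log2 fold change of 0.0081. Cyc1, cytochrome c1, had 56.3, 74.8 and 58.1 TPM in tunicamycin and 59.5, 48.2 and 58.0 TPM in vehicle, and its log2 fold change was 0.08. Uqcrfs1, the Rieske iron-sulfur protein, was at 0.02, and Uqcr10, a small subunit, at 0.00092. Of 16 listed for complex IV, 7 were tested and 0 passed, with a median of -0.02. Ndufa4, a subunit that joins complex IV, had 168, 160 and 185 TPM in tunicamycin and 206, 219 and 195 TPM in vehicle. All tunicamycin values lay below all vehicle values, at -0.22 on the log2 scale (95% interval -0.41 to -0.04, edgeR adjusted p = 0.63). In CPM the groups did not overlap for 2 of the 7, against 12.6% of all tested genes, and 5.95% with tunicamycin lower. Cox8a was at 0.13 and Cox6b1 at -0.02. Of 18 listed for complex V, 2 were tested and 0 passed, with Atp5e at -0.09 and Atp5mpl at 0.15.

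Of 31 listed assembly factors of these complexes, 14 were tested and 0 passed, with a median of 0.04. Coa5, a factor for complex IV, was at 0.03, Uqcc3, for complex III, at -0.11 and Cox14, for complex IV, at 0.03. The single factor of the 14 with an unadjusted p under 0.05 (6.42% of all tested genes) was Cox16, which takes part in the assembly of mt-Co2 protein and was chosen after its values were seen. It had 84.9, 82.4 and 78.4 TPM in tunicamycin and 60.8, 62.0 and 62.6 TPM in vehicle. The groups were well apart, by 0.54 ± 0.13 (SE) on the log2 scale (95% interval 0.26 to 0.81, edgeR adjusted p = 0.31). Of 31 listed genes of mitochondrial RNA synthesis and processing, 9 were tested and 0 passed, with a median of -0.07. Rexo2, an RNase that degrades short RNA in mitochondria, was at -0.07. Mtpap, the mitochondrial poly(A) polymerase, was at 0.08, and Trmt10c, a subunit of mitochondrial RNase P, was at -0.18.

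Among the genes outside mitochondrial DNA whose log2 CPM followed the mean of the 6 mRNAs most closely were Mrps27 (Pearson's r 0.984), Lrrc59 (0.957), Reep4 (0.932) and Zfp358 (0.917). They stood near the top of 1899 tested genes whose log2 CPM averaged 5 or more, ranked over 6 libraries, and the values only describe these libraries. Mrps27, a protein of the mitochondrial ribosome, had 51.2, 49.9 and 41.6 CPM in tunicamycin and 46.8, 56.0 and 50.1 CPM in vehicle. Like 5 of the 6 mRNAs, it was lowest in tunicamycin replicate 3 and highest in vehicle replicate 2.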

How the data were processed

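Per the submitters' processing notes, bcl2fastq, Salmon, DESeq2 and build GRCm39 were used; versions and roles are not listed there. For every row the authors deposited an estimated count, often fractional and not scaled to depth, and a TPM value; the annotation behind them is not given in the sources used here. Symbols were matched for 13627 of 13685 identifiers. Counts were rounded and fitted over the whole table with edgeR 4.0.16 in R 4.3.3 (filterByExpr, TMM, robust quasi-likelihood F test, 2-sided), and p-values were adjusted over the 3613 genes tested. The 95% intervals come from the fold changes of that fit. Log2 CPM used a prior count of 2. Shares and ratios were compared by exact permutation. Alternatives used DESeq2 1.42.0, limma 3.58.1 on log2(TPM + 1) or log2(TPM + 0.1), other scalings and filters, effective-length offsets from the ratio of count to TPM, a replicate block, and leaving out each library. Members were named in full, the other mitochondrial mRNAs with a row, of each list the members past the threshold or else up to 3 with the highest mean, and by correlation the 5 most similar genes; a few genes that these rules cover are not reported here. The members and lists were chosen with earlier results of these data known.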

Additional observations from a re-analysis of the deposited data

How the results depend on the processing

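None of the 6 mRNAs passed the threshold under any of the 19 alternatives to the test. mt-Cytb, mt-Co1 and mt-Atp8 kept a negative log2 fold change in all of them (-0.171 to -0.016, -0.131 to -0.0040 and -0.222 to -0.111). That of mt-Co2 was 0.034 without a composition factor and ran from -0.054 to 0.05 when a library was left out; with effective-length offsets it was -0.085, and -0.084 with these and the replicate block. mt-Co3 ran from -0.082 to 0.013 and mt-Atp6 from -0.042 to 0.076 when a library was left out. mt-Atp6 was at -0.006 in limma (log2(TPM + 1), log2(TPM + 0.1) and without a filter), at -0.067 with effective-length offsets and at -0.066 with these and the replicate block. The cause of these shifts was not tested. With effective-length offsets the median of the nuclear subunits was -0.115 for complex IV and -0.084 for complex V, against -0.025 and 0.026 without them.

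All tested genes past the threshold were 3, against 16 without a filter on low counts, 20 in DESeq2, 1 in each limma fit, 36 with the replicate block, 6 with the block and effective-length offsets, and 1 to 5 when a library was left out. Whether replicate numbers pair the libraries was checked by the correlation of deviations from group means over genes: 0.0371, 0.187 and 0.107 for numbers 1 to 3, so not every pair exceeded 0.1. All 6 libraries correlated best with their own number. Igha had 86.8, 160 and 21.5 TPM in tunicamycin replicates 1 to 3 and 77.8, 152 and 18.6 TPM in vehicle. Lyz2 kept this order, at 7.11, 10.4 and 3.55 TPM in tunicamycin and 7.3, 8.52 and 2.94 TPM in vehicle. The mean deviations of the 6 mRNAs, -0.167 in tunicamycin replicate 3 and 0.018 in vehicle replicate 3, did not keep it. The library names carry the same numbers in both groups, but no label states that these numbers pair the libraries. Pairing is therefore a hint from the names and the data, and not a stated part of the design. The main fit left the numbers out. With the block the smallest adjusted p of the 6 mRNAs was 0.13, and no call changed.

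The share of mt-Co3 differed by 0.203 percentage points in counts, and -0.177 in TPM. When a library was left out, the share of mt-Cytb differed by -0.13 to 0.122 percentage points, the log2 ratio of mt-Co2 to mt-Co1 by -0.0024 to 0.0349 and that of mt-Cytb to mt-Co1 by -0.0694 to 0.0048. The log2 ratios of mt-Atp8 and of mt-Co3 to mt-Atp6 were also lower in tunicamycin in counts, with differences of -0.189 and -0.0572. Their groups did not overlap in TPM, so leaving out a library could not turn the sign. The replicate block gives the same mean difference, so it could not turn the sign either. Paired exact tests cannot go below 0.25. Counts of these mRNAs are high, so the spread between libraries limits precision.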
